A study of Mus musculus with 32 samples.

Results

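The genes described here are germ cell, piRNA and meiosis genes of the mouse, taken from a fixed list of 38 names and measured in EL08-1D2, a stromal line of mouse embryonic liver. Values for 35 of the 38 were analysed here, out of 21829 mouse genes, while Tex15, Zfp42 and Dppa3 were not analysed here. The cells were untreated or treated with azacitidine, a cytidine analogue that is built into nucleic acids and traps DNA methyltransferases on DNA, so that methylation is lost as cells divide. There were 16 libraries without and 16 with azacitidine, all from the same line, and polyadenylated RNA was counted as unique molecular identifiers (UMIs), each of which stands for 1 captured cDNA molecule. The sources used here give neither dose nor duration, and whether libraries are separate cultures is not stated. The p-values therefore measure the spread between these libraries, which may be technical. DNA methylation was not measured in these data.

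Germ cells use a set of genes that other cells keep silent. Some build the synaptonemal complex, which holds paired chromosomes together in meiosis, and others act with PIWI proteins and small piRNAs to silence transposons in the testis. Many of these genes have promoters with a moderate to high density of CpG dinucleotides that carry DNA methylation in somatic tissues, and loss of that methylation is known to let some of them be transcribed.

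The promoters are shown first because the methyltransferases that azacitidine traps methylate cytosines mostly in CpG in mammals. The stretches below end just before the first annotated transcript start of the 4 members with the most UMIs with azacitidine that had a RefSeq promoter (GRCm38.p6, the mm10 assembly). Each is written 5′ to 3′ on the strand of the gene, with CpG dinucleotides in capitals. Gtsf1 lies at chr15:103430471-103430677 on the minus strand, Sohlh2 at chr3:55181794-55182027 on the plus strand, Syce2 at chr8:84871861-84872110 on the plus strand and Naa11 at chr5:97392380-97392580 on the minus strand.
Gtsf1: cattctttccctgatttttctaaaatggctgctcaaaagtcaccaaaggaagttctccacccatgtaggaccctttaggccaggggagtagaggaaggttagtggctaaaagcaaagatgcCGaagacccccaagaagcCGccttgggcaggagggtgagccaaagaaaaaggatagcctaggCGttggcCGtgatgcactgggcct
Sohlh2: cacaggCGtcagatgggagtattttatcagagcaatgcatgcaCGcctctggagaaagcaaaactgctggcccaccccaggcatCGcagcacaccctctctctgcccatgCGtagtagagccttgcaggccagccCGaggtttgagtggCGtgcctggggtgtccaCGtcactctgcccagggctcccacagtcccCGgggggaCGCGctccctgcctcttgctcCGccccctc
Syce2: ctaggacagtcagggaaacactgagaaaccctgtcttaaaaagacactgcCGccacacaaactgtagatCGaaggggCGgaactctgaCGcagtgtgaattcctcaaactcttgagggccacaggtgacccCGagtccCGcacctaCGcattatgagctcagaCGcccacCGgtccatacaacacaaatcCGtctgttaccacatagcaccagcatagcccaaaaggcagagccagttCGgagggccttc
Naa11: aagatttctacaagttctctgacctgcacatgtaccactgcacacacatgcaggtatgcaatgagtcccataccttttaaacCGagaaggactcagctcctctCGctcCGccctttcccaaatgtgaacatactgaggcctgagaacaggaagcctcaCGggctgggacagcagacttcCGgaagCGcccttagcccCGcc
The stretch of Gtsf1 held 4 CpG in 207 bases, that of Sohlh2 11 in 234, that of Syce2 11 in 250 and that of Naa11 7 in 201.

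Libraries held 818619 to 3210801 UMIs without and 1226861 to 5039721 with azacitidine. Results are also given without 5 libraries singled out in earlier work on these data, untreated numbers 1 and 2 and treated numbers 1, 2 and 4. The median correlation with the other libraries of their group was 0.938 to 0.952 for 4 of the 5, below that of each other library. For untreated number 2 it was 0.965, within the 0.960 to 0.976 of the other 27. Libraries are also given in 4 runs of replicate numbers, 1 to 4, 5 to 8, 9 to 12 and 13 to 16. The labels do not say what the runs are. The 6 stromal markers, of which Thy1 had no UMI without azacitidine, summed to 5047 to 6892 UPM (UMIs per 1000000 UMIs of the library, or of the libraries summed) without and 4084 to 6786 with azacitidine. Of these, the collagen genes Col1a1 and Col1a2 fell by 0.36 and 0.38 on the log2 scale (edgeR, adjusted p = 0.000666 and 0.000661). Neither was called with spike-in scaling or with runs summed. Col1a1 was also not called with a run term on those sums or without numbers 5 to 8. The surface marker Thy1 rose from 0 to 26 UMIs (edgeR, adjusted p = 0.000129). Thy1 was not called with spike-in scaling (adjusted p = 0.135), after thinning or with runs summed.

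The summed level of the germ cell genes was higher with azacitidine, and 18 of the 35 passed the test. Summed over the 35 genes there were 571 UMIs without and 3136 with azacitidine, and Brdt, Xlr3a and Xlr3b held 141, 156 and 71 of the 571. Per library this was 16.9 to 29.6 UPM without (median 20.4) and 61.7 to 106 with azacitidine (median 86.5), so that the groups did not overlap. An untreated library showed a UMI for 6 to 14 of the 35 genes (median 10), and a treated library for 19 to 29 (median 23.5). These numbers of genes also depend on library size and were not adjusted for it, and treated libraries were deeper in sum. In bulk RNA a larger number of cells that express a gene and more RNA per cell cannot be told apart.

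Azacitidine raised 18 of the 35 genes and lowered 0 (edgeR quasi-likelihood test over 21822 genes, Benjamini-Hochberg adjusted p under 0.05). Of the 35, 0 lay lower at an unadjusted p under 0.05, and DESeq2 and limma-voom also called 0 as lower. Over all genes 3.30% were called higher and 0.687% lower. Members were chosen with earlier results of these data known, so each contrast with all genes here and below, also those by role, is a description. The median log2 fold change was 2.26 among the 35 and 0.05 over all genes, and 31 of the 35 lay above no change, against 57.5% of all genes. Fitted fold changes of genes without a UMI in a group depend on the fit. From the UMI sums, with a group at 0 set at 3 UMIs, 27 genes had a ratio. With the 8 others placed below all of these, the median log2 ratio over the 35 was 2.14. Among the called genes the log2 fold change ran from 2.14 to 4.65, and all 18 were higher with azacitidine in each of the 4 runs. Since the calls rest on those libraries too, that count is a description. Without the 5 libraries 16 members were called, of which 15 were among the 18. The same number of members was called without numbers 1 to 4, again with 15 of the 18. Treated libraries were deeper in sum, and thinning all libraries to the smallest left 12 calls, all among the 18. Scaling by spike-in RNA shifted the all-gene median up by 0.29 (log2). It called 13 members, 12 of them among the 18, and its split over all genes was 898 higher and 1 lower, against 721 and 150 with TMM.

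**Figure D1:**
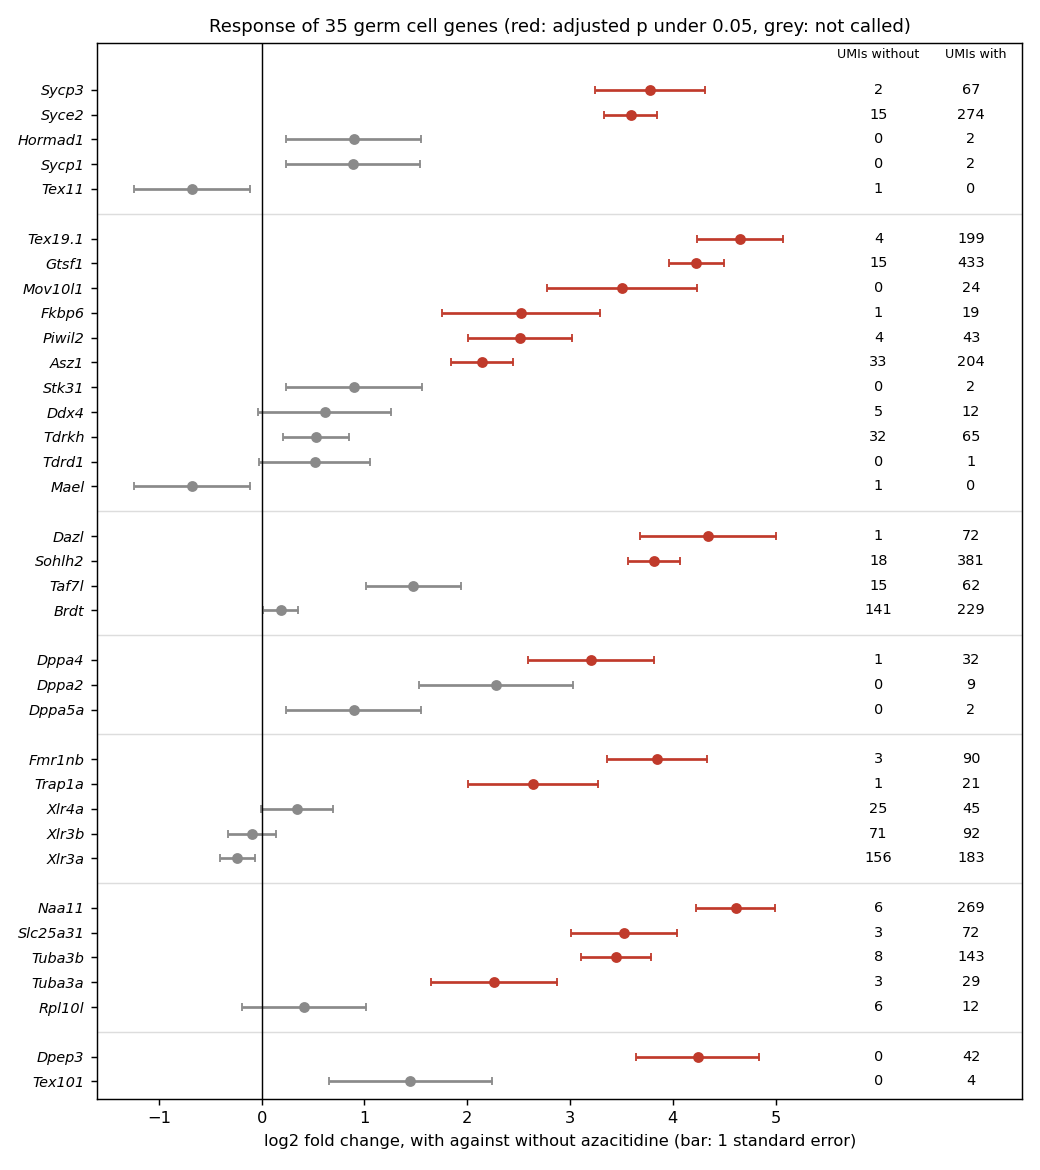
Log2 fold change with against without azacitidine for the 35 germ cell genes (edgeR fit, points, with bars of 1 standard error), grouped by role, and their UMI sums over 16 libraries each. The 18 called genes (red) lie between 2.14 and 4.65, and none of the 35 was called lower.

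Most genes of the list were low in the untreated cells, and a few were not. In the untreated cells 29 of the 35 genes had 20 or fewer UMIs over 16 libraries, 9 of them none, and 17 of these 29 rose with azacitidine. Of the 21822 genes tested, 8535 were that low without the drug, and 3.00% of these rose. With members chosen when earlier results were known, this contrast too is a description. The other 6 genes, Brdt, Xlr3a, Xlr3b, Asz1, Tdrkh and Xlr4a, had more than 20 UMIs without azacitidine, and 1 of them, Asz1, rose. Brdt and both Xlr3 genes were seen in each of the 16 untreated libraries, so the label silenced does not describe them here. Low counts do not show silence either: Syce2 and Gtsf1 had 15 UMIs each and Sohlh2 18, each in 9 untreated libraries. A count of 0 over the 16 untreated libraries allows up to 0.110 UPM, and over the treated ones 0.0782. Intervals and floors cover counting error only.

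Of 5 genes of the synaptonemal complex and the meiotic chromosome axis 2 were called higher, against 3.30% of all genes. The other 3 had almost no UMIs in either group. Syce2 encodes a central element protein of the complex (ENSMUSG00000003824, chromosome 8, 84872111 to 84888221). Its level ran from 0 to 1.69 CPM without azacitidine (median 0.625) and from 5.40 to 9.93 with it (median 7.49); CPM are UMIs per 1000000 of the library size after TMM normalization. Each treated library lay above each untreated one, and the log2 fold change was 3.59 (SE 0.26, edgeR, adjusted p = 1.58e-19). Such a gap without overlap, higher with azacitidine, was seen for 0.215% of all genes and for 6 of the 35. Sycp3, a lateral element protein (chromosome 10, 88459569 to 88473236), had 2 UMIs in 2 untreated libraries and 67 spread over all 16 treated ones, a ratio in UPM of 23.9 (95% exact binomial interval 6.36 to 201). It rose by 3.78 (SE 0.54, edgeR, adjusted p = 7.38e-07). Of the exonic bases of Sycp3, 660 or 52.2% are shared with Chpt1 on the opposite strand. Chpt1 had 176 and 272 UMIs and a log2 fold change of 0.12 (edgeR, adjusted p = 0.778). Sycp1, the transverse filament protein that joins the lateral elements, stood at 0 and 2 UMIs. Hormad1, an axis protein of meiotic chromosomes, had 0 and 2 UMIs, and Tex11, an X-linked meiotic crossover factor, 1 and 0. At so few UMIs a change in these 3 was not detectable at this depth.

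The piRNA and transposon defence genes had 95 UMIs without and 1002 with azacitidine, and 6 of 11 were called higher, against 3.30% of all genes. Gtsf1, a zinc finger cofactor of PIWI proteins (ENSMUSG00000022487, chromosome 15, 103402405 to 103430470), ran from 0 to 1.57 CPM without (median 0.597) and from 7.71 to 24.0 with azacitidine (median 9.79). The groups did not overlap, and the log2 fold change was 4.23 (SE 0.27, edgeR, adjusted p = 3.41e-22). Tex19.1, which restrains retrotransposons in germ cells and placenta (chromosome 11, 121146143 to 121148319), ran from 0 to 1.03 CPM (median 0) and from 0.657 to 9.28 (median 4.75). In 15 of 16 treated libraries it lay above the highest untreated library, and it rose by 4.65 (SE 0.42, edgeR, adjusted p = 1.04e-13). Asz1, an ankyrin repeat protein of the mitochondria-associated piRNA granules (chromosome 6, 18050964 to 18109061), was already seen in 13 of 16 untreated libraries. It ran from 0 to 2.75 CPM without (median 1.17) and from 1.97 to 12.1 with azacitidine (median 5.77), overlapping in 2 treated libraries, and its rise of 2.14 (SE 0.30, edgeR, adjusted p = 4.24e-07) was the smallest among the 18. Mov10l1, the RNA helicase that starts piRNA processing, had 0 UMIs without and 24 in 12 treated libraries (edgeR, adjusted p = 0.000781). With the untreated group set at 3 UMIs its ratio in UPM was 5.70. The 95% exact binomial interval from the counts started at 4.29. Piwil2, a PIWI protein itself, had 4 and 43 UMIs and rose by 2.52 (SE 0.50, edgeR, adjusted p = 0.00032). Mov10l1 and Piwil2 were not called after thinning or with spike-in scaling, and Mov10l1 also lost its call when the runs were summed. Fkbp6, a chaperone partner of the pathway, had 1 and 19 UMIs and passed narrowly (edgeR, adjusted p = 0.0448). It was called in 7 of the 20 alternative settings.

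Other piRNA genes of the list did not pass the test. Tdrkh, a Tudor protein of the mitochondrial surface that other tissues also express, ran from 0 to 3.17 CPM without (median 0.891) and from 0.521 to 4.35 with azacitidine (median 1.71). All but 1 treated library lay within or below the untreated range (log2 fold change 0.53, SE 0.32, edgeR, adjusted p = 0.513). Part of its exons, 36.7% of the bases, is shared with Oaz3 on the opposite strand, which had 3 UMIs in each group. Ddx4, the germ cell helicase Vasa, had 5 and 12 UMIs, of which 4 and 9 lay in numbers 1 to 4 (edgeR, adjusted p = 0.67). Mael had 1 and 0, Tdrd1, a Tudor scaffold, 0 and 1, and Stk31, a testis kinase-like Tudor protein, 0 and 2 UMIs.

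**Figure D2:**
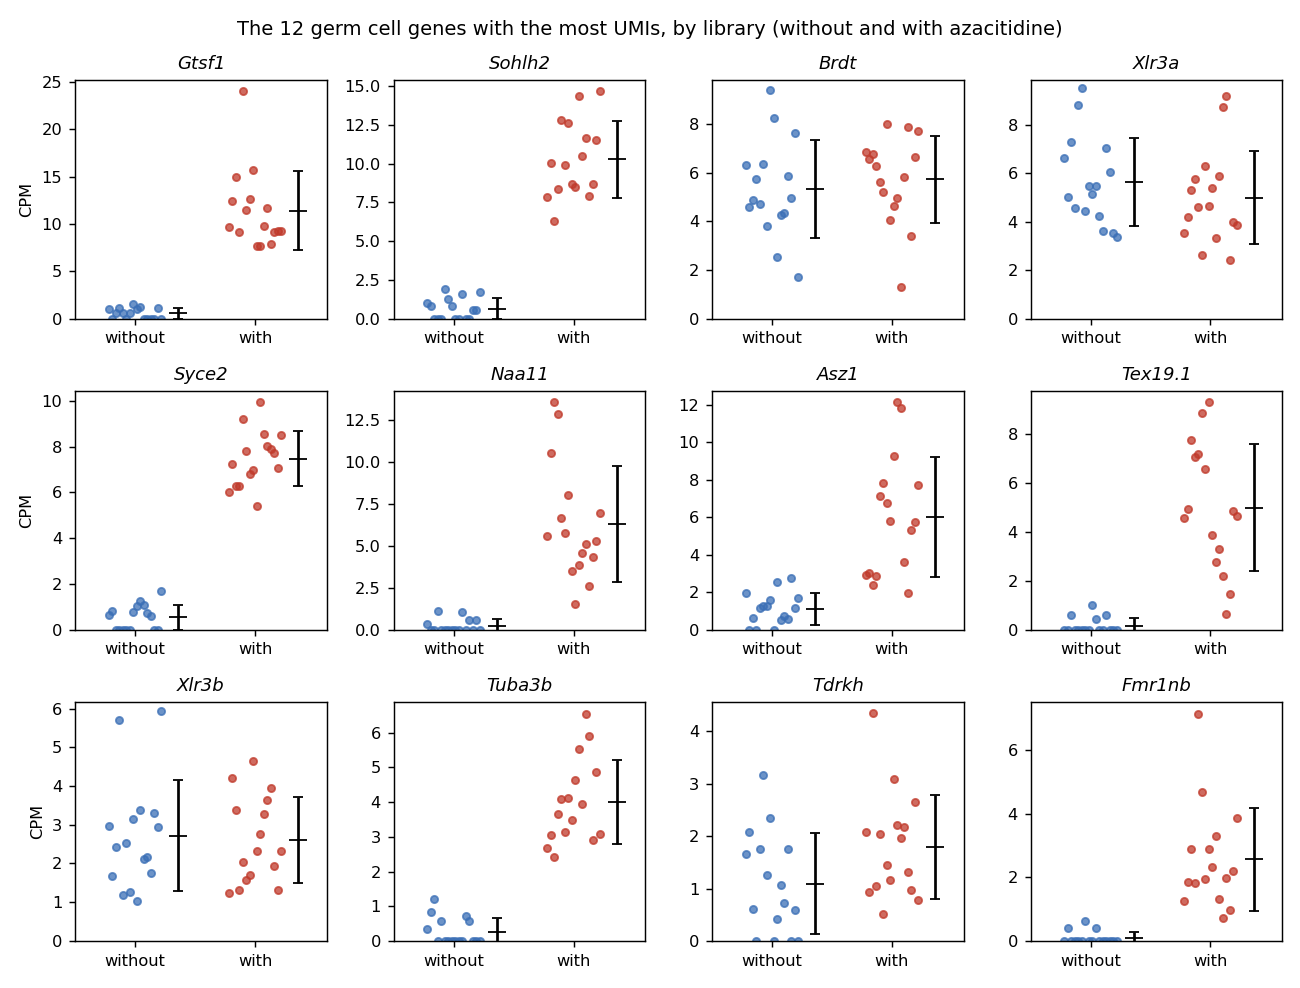
Level in CPM (linear axes from 0) of the 12 genes with the most UMIs, in 16 libraries without (blue) and 16 with azacitidine (red). Points are libraries, the bar is the mean and whiskers are 1 SD, clipped at 0. Syce2, Gtsf1, Sohlh2, Tuba3b, Naa11 and Fmr1nb do not overlap between the groups, while Brdt, Xlr3a, Xlr3b and Tdrkh do.

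Among the regulators of germ cell gene expression 2 of 4 were called higher, against 3.30% of all genes. Sohlh2, a basic helix-loop-helix factor of early spermatogonia and oocytes (chromosome 3, 55182028 to 55209957), ran from 0 to 1.90 CPM without (median 0.568) and from 6.28 to 14.7 with azacitidine (median 9.98). No treated library reached down to an untreated one, and the log2 fold change was 3.82 (SE 0.25, edgeR, adjusted p = 1.36e-20). Dazl, an RNA-binding protein that promotes translation in germ cells (chromosome 17, 50279395 to 50293636), had 1 UMI in 1 untreated library and 72 in 15 treated ones. The ratio in UPM was 51.3 with a wide interval (95% exact binomial, 8.92 to 2055), and the fitted log2 fold change was 4.34 (SE 0.66, edgeR, adjusted p = 1.37e-05). Taf7l, an X-linked testis form of a TFIID subunit, had 15 UMIs in 7 untreated and 62 in 15 treated libraries and narrowly missed the threshold (log2 fold change 1.47, SE 0.46, edgeR, adjusted p = 0.0533). Of its treated UMIs 25.8% came from number 7 alone, and it was called higher in 7 of the 20 alternative settings. Brdt, a testis bromodomain protein that compacts chromatin in spermatids, ran from 1.69 to 9.40 CPM without (median 4.90) and from 1.31 to 8.00 with azacitidine (median 6.05). No treated library lay above the highest untreated one (log2 fold change 0.19, SE 0.17, edgeR, adjusted p = 0.67).

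The developmental pluripotency associated genes, named for their activity in early embryos and germ cells, had 1 UMI in all without azacitidine and 43 with it. Of the 3 genes 1 was called higher, against 3.30% of all genes. Dppa4, a chromatin-binding protein that works in a pair with Dppa2, had 1 UMI without and 32 in 14 treated libraries, a log2 fold change of 3.20 (SE 0.61, edgeR, adjusted p = 0.000222). It was not called after thinning or with spike-in scaling. Dppa2, its neighbour on chromosome 16 (48303908 to 48319723, beside Dppa4 at 48283733 to 48294237), had 0 UMIs without and 9 in 7 treated libraries, at least 2.14-fold higher at the floor, and did not pass (edgeR, adjusted p = 0.0721). Dppa5a, a KH domain RNA-binding protein, had 0 and 2 UMIs. Of the 50-base words in their transcripts 31.3%, 29.1% and 38.6% also occur in transcripts of other genes, so that reads could be shared with copies.

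Of the X-linked Xlr and tumour antigen genes 2 of 5 were called higher, against 3.30% of all genes, and both were antigen genes. Fmr1nb, a cancer and testis antigen gene (chromosome X, 68761839 to 68804567), ran from 0 to 0.633 CPM without (median 0) and from 0.728 to 7.16 with azacitidine (median 2.09). The groups did not overlap in CPM, and it rose by 3.85 (SE 0.49, edgeR, adjusted p = 2.65e-08). That gap rests on library size: treated number 12 and untreated number 7 each held 1 UMI of Fmr1nb, at 0.728 and 0.633 CPM. Trap1a, which encodes the tumour rejection antigen P1A, had 1 and 21 UMIs and rose by 2.64 (SE 0.63, edgeR, adjusted p = 0.00429). Trap1a was called in 11 of the 20 alternative settings, not among them the fits without numbers 1 to 4 or without the 5 libraries. The Xlr genes encode nuclear proteins related to the lateral element protein Sycp3. Xlr3a ran from 3.39 to 9.50 CPM without (median 5.31) and from 2.42 to 9.19 with azacitidine (median 4.62), and its log2 fold change was -0.24 (SE 0.17, edgeR, adjusted p = 0.628). Xlr3b ran from 1.03 to 5.92 (median 2.48) and from 1.24 to 4.64 CPM (median 2.32), with -0.10 (SE 0.24, edgeR, adjusted p = 0.905). Both signs turned with spike-in scaling, to 0.04 and 0.18. Xlr4a had 25 and 45 UMIs and a log2 fold change of 0.34 (SE 0.35, edgeR, adjusted p = 0.67), which turned to -0.26 after thinning. These copies are alike: 44.8% of the 50-base words of Xlr3a, 56.5% of Xlr3b and 77.7% of Xlr4a occur in other genes, so values of single copies are uncertain.

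Testis forms of proteins that other cells make from another gene were raised in 4 of 5 cases, against 3.30% of all genes. Naa11, a testis form of the catalytic subunit of the N-terminal acetyltransferase NatA (chromosome 5, 97382198 to 97392379), ran from 0 to 1.14 CPM without (median 0) and from 1.54 to 13.5 with azacitidine (median 5.45). It did not overlap between the groups in CPM and rose by 4.61 (SE 0.38, edgeR, adjusted p = 4.83e-16). In raw UMIs the groups met, with 2 in treated number 9 and 2 in untreated number 11. Tuba3b, an alpha-tubulin of the testis (chromosome 6, 145615757 to 145621479), ran from 0 to 1.21 CPM (median 0) and from 2.42 to 6.55 (median 3.80). Again no treated library overlapped an untreated one, and the log2 fold change was 3.45 (SE 0.34, edgeR, adjusted p = 5.79e-13). Its near-identical relative Tuba3a had 3 and 29 UMIs and rose by 2.26 (SE 0.61, edgeR, adjusted p = 0.016). The transcripts of Tuba3a share 32.4% of their 50-base words with Tuba3b, so reads may have been split between them, and Tuba3a was called in 9 of the 20 alternative settings. Slc25a31, the germ cell form of the mitochondrial ADP/ATP carrier, had 3 and 72 UMIs and was seen in 2 untreated and all 16 treated libraries (log2 fold change 3.52, SE 0.51, edgeR, adjusted p = 8.43e-07). Rpl10l, a testis form of a large ribosomal subunit protein, had 6 and 12 UMIs, 6 of the 12 in treated number 1 alone (edgeR, adjusted p = 0.787). Without numbers 1 to 4 its log2 fold change turned from 0.41 to -1.07.

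The surface proteins Dpep3 and Tex101 are held to the membrane of testicular germ cells by a lipid anchor. Dpep3, a dipeptidase family member (chromosome 8, 105973513 to 105979429), had 0 UMIs in the untreated libraries and 42 in 15 treated ones, at least 9.98-fold higher at the floor (edgeR, adjusted p = 1.25e-06). Its treated level was even, with 1.16, 1.12, 1.01 and 0.998 UPM in the 4 runs. Tex101 had 0 and 4 UMIs, in 3 libraries (edgeR, adjusted p = 0.453).

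The response was looked at across the runs. The interaction of run and azacitidine was called for 0 of the 35 genes (edgeR, quasi-likelihood F test), with 0 at an unadjusted p under 0.05, and for 1.24% of all genes. Most members had almost no UMIs without the drug, which leaves this test little to compare. Among the 16 treated libraries alone, the runs differed for 6 of the 33 members with a UMI there, and for 26.7% of all 21008 genes (edgeR, adjusted p under 0.05), a comparison added after the data were seen. The share of members was thus no higher than that of all genes. Dazl was at 1.28, 1.32, 5.07 and 1.28 UPM in the 4 runs with azacitidine (edgeR, adjusted p = 0.000287). Asz1 was at 2.76, 6.80, 9.64 and 5.27 (adjusted p = 4.26e-06 in edgeR), Naa11 at 9.57, 6.40, 3.89 and 4.85 (7.09e-05) and Tex19.1 at 5.52, 7.52, 3.04 and 2.99 (0.00047). Gtsf1 and Taf7l were the other 2. The runs with the highest level thus differed between genes, with numbers 9 to 12 highest for Dazl and Asz1, numbers 1 to 4 for Naa11 and numbers 5 to 8 for Tex19.1.

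The spread among treated libraries also differed by gene. The variance of UMI counts over that of random counting, given the library totals, was 0.506 for Syce2, 0.594 for Dpep3 and 0.845 for Tuba3b. It was 4.13 for Asz1, 3.78 for Naa11, 3.37 for Dazl and 3.08 for Taf7l. The former genes varied no more than counting alone gives. A difference between runs raises this measure, since it is taken over the same libraries.

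**Figure D3:**
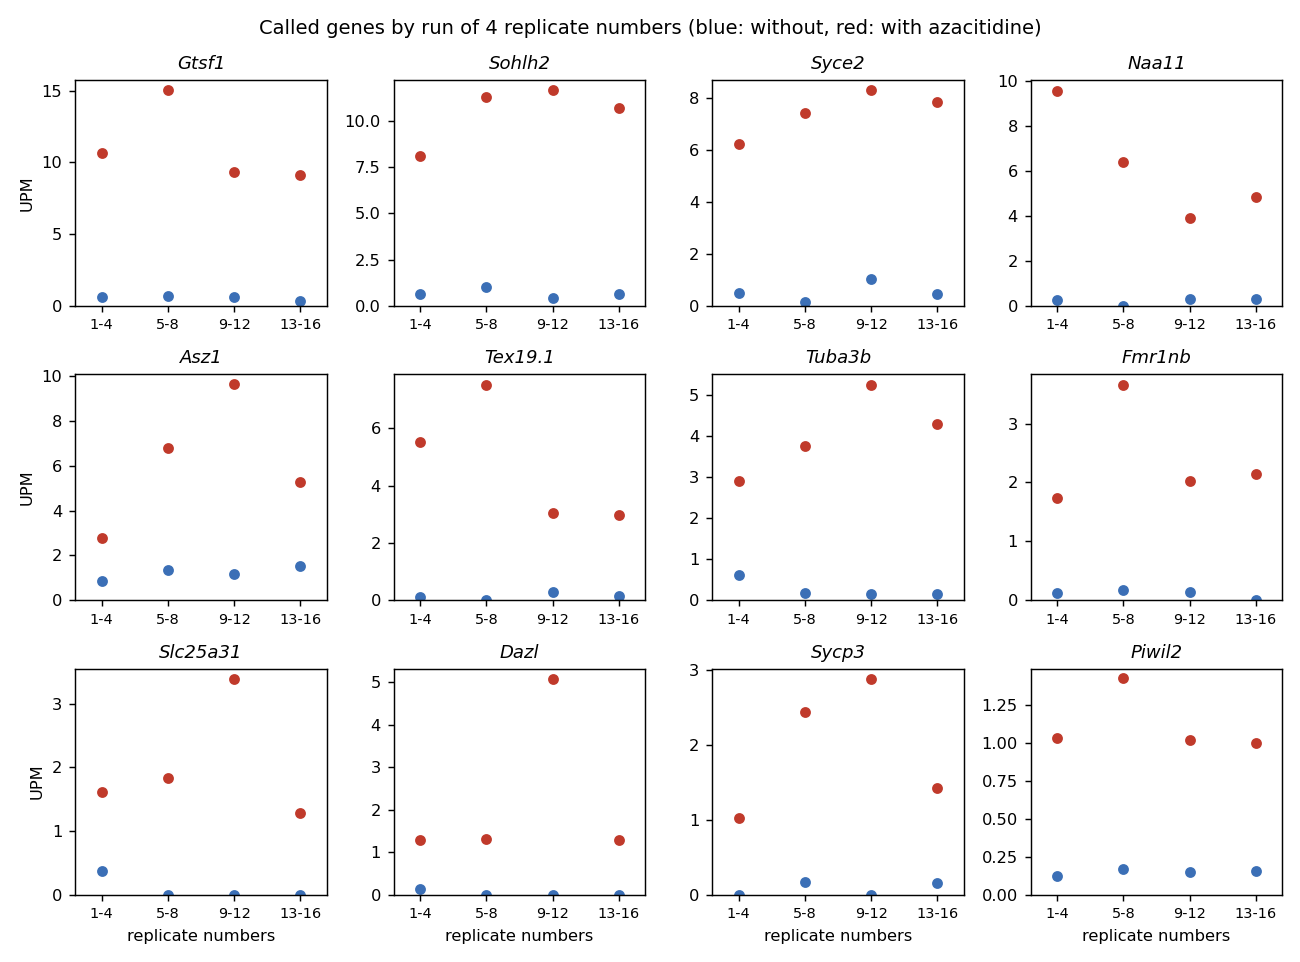
UPM (linear axes from 0) in the sums of 4 libraries for 12 called genes, by run of replicate numbers, without (blue) and with azacitidine (red). Each red point lies above the blue one, Dazl stands at 5.07 in numbers 9 to 12 and at 1.28 to 1.32 in the other runs, and Naa11 is highest in numbers 1 to 4.

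The promoters of the list were richer in CpG than most. A RefSeq window of 300 bases, from 250 before to 50 after the start, was matched for 30 of the 35 genes, with the first listed window taken where there were several. The window of Stk31 ends at 49395588 on chromosome 6, before the first annotated transcript start at 49395604, and was kept in the counts. The 30 windows held 5 to 38 CpG (median 17), against a median of 7 over all 32851 windows of the table. The 16 called genes with a window had a median of 16 and the 14 others 20.5, so within the list the called genes did not have the higher counts. Ddx4, with 38 CpG, and Dazl, with 28, are the richest of the 2 sets, and Xlr3a, with 5, is the poorest. The ratio of observed to expected CpG had a median of 0.688 in the list and 0.384 over all windows. The E-box CACGTG, which reads the same on both strands, was in 12 of the 30 windows (40.0%) and in 7.15% of all. It was in 4 of the 16 called genes (25.0%) and in 8 of the 14 not called (57.1%). The core GCGGGA of E2F6-type sites, on either strand, was in 12 of 30 (40.0%) and in 19.98% of all windows, among them Syce2, at -115 bases from the start in the stretch shown above, and Tex19.1, Naa11, Tuba3a and Tuba3b. It was in 7 of the 16 called genes and in 5 of the 14 not called, Mael, Hormad1, Sycp1, Rpl10l and Ddx4. E2F6 and E-box factors are known silencers of germline promoters, but a match of letters is not a bound site, and these counts carry no test. Both motifs hold a CpG, and the windows of the list hold more CpG than most. The shares were not set against windows of like CpG content, so they do not show a preference for the motifs.

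**Figure D4:**
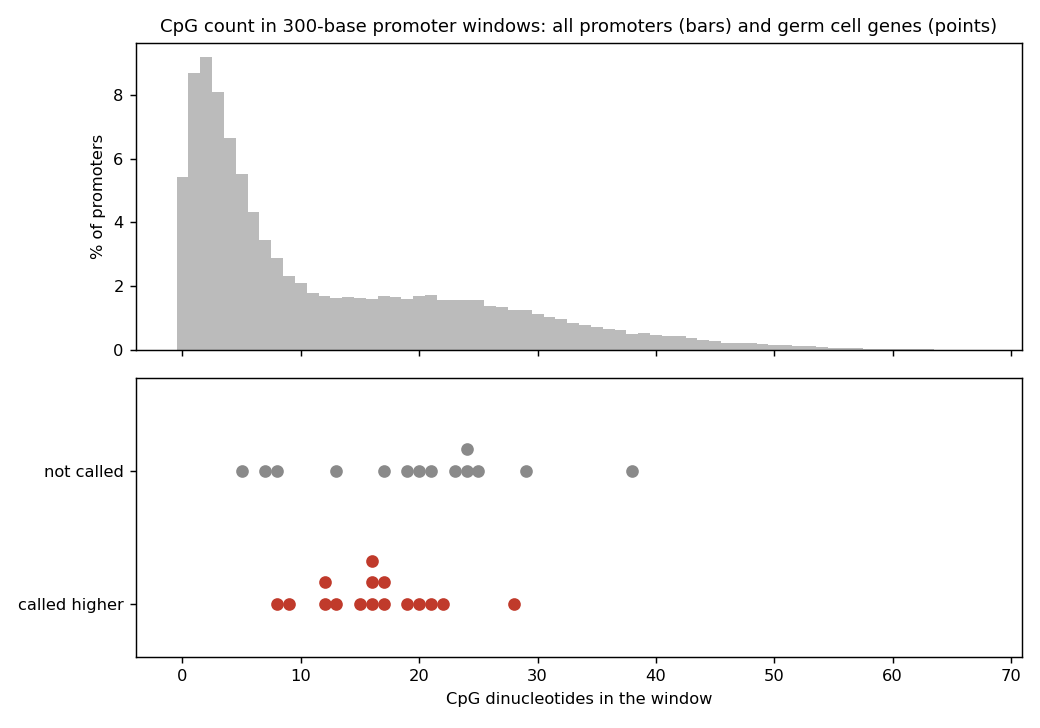
CpG dinucleotides per 300-base promoter window: share of all 32851 windows (upper panel, bars, in percent) and each of the 30 germ cell genes with a window (lower panel, red for called higher, grey for not called). The called genes lie between 8 and 28 CpG and the others between 5 and 38.

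Related genes outside the list are read against the 3.30% of all genes that were called higher. Of 19 other piRNA pathway genes with values 1 rose and 0 fell, with 4 at unadjusted p below 0.05 (median log2 fold change 0.52): Tdrd9, a helicase of the pathway, from 9 to 65 UMIs (SE of the log2 fold change 0.41, edgeR, adjusted p = 7.8e-05). Tdrd9 was not called after thinning. Of 20 other genes of the meiotic axis and recombination none passed in edgeR (0 calls, 2 with unadjusted p below 0.05), and the median was 0.08. The most abundant of them, Psmc3ip, had 460 and 685 UMIs (log2 fold change 0.07, SE 0.11, edgeR, adjusted p = 0.793). Of 12 other X-linked Xlr and Mage-type genes edgeR gave 0 calls (3 with unadjusted p below 0.05) and a median of 0.78. Xlr3c had 55 and 124 UMIs (log2 fold change 0.68, SE 0.25, edgeR, adjusted p = 0.139) and passed with spike-in scaling (adjusted p = 0.0449). Whether these lists differ from the 35 genes was not tested.

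Of 20 silencers of germline genes 1 rose and 1 fell, against 3.30% and 0.687% of all genes, and 6 had an unadjusted p below 0.05, with a median log2 fold change of -0.02. E2f6, a repressor of germline promoters, rose from 145 to 304 UMIs, by 0.56 (SE 0.16, edgeR, adjusted p = 0.0269), and was not called in 8 of 19 other settings, among them the fits without numbers 1 to 4 and without the 5 libraries. Kdm5c, a histone demethylase encoded on the X, fell by 0.35 (SE 0.09, edgeR, adjusted p = 0.00784), and was not called in 5 of 19 other settings. Among these was spike-in scaling, where its log2 fold change was -0.07 (edgeR, adjusted p = 0.902).

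Markers of cell types that express such genes naturally were looked at by list, beside the 3.30% of all genes called higher. These lists are too short for a share of calls to be read from 1 call. Of 8 pluripotency markers 2 had values, with 12 UMIs without and 20 with azacitidine in sum, between 0 and 2.45 UPM in a treated library and between 0 and 1.22 in an untreated one, and edgeR called 0 of them, with 0 at an unadjusted p under 0.05. Nanog held 12 and 19 of these UMIs. The haploid sperm markers with values, 4 of 13, summed to 12 and 9 UMIs and lay between 0 and 1.17 UPM without and 0 and 0.781 with azacitidine. Acrv1, of the sperm acrosome, had 5 and 3 UMIs. The oocyte markers with values, 5 of 10, summed to 62 and 74 UMIs, at 0.544 to 6.11 UPM without and 0.522 to 3.33 with azacitidine. Gdf9, which signals from oocytes to follicle cells, held 59 and 64 of these. Among 7 of 10 markers of primordial germ cells and spermatogonia with values 1 rose, at 3.91 to 11.8 UPM in sum without and 6.74 to 14.4 with azacitidine. This was Dnd1, an RNA-binding protein of germ cells, with 11 and 58 UMIs in a list sum of 195 and 385 (log2 fold change 1.76, SE 0.41, edgeR, adjusted p = 0.00225). Dnd1 was not called with limma-voom, after thinning, with runs summed or without numbers 5 to 8. Among 4 of 7 markers of the gonadal soma 1 rose, at 0.504 to 3.90 UPM without and 3.08 to 7.32 with azacitidine. This was Star, the cholesterol carrier of steroid synthesis, with 28 and 134 UMIs (log2 fold change 1.73, SE 0.25, edgeR, adjusted p = 7.28e-07). The part of such cells in the results was not tested.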

How the data were processed

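The authors deposited 1 table of raw counts (UMIs of each gene in each library, not normalized). Per the labels' protocols, a column kit gave total RNA, and cDNA was barcoded, pooled and pre-amplified with UMIs before a transposase-based library kit. STAR 2.4.0, bedtools 2.17.0 and mm10 are named in the submitters' processing notes, while annotation, UMI collapsing and strand are not given in the sources used here. Symbols and positions came from GENCODE mouse M21 (21506 of 21829 genes matched). The 68 ERCC spike-in rows, 0.106% of UMIs, stayed out of library sizes and tests. Totals ran from 818619 to 5039721 UMIs.

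The test was edgeR 4.0.16 (R 4.3.3, quasi-likelihood fit, robust, legacy off, TMM) on all 21822 genes with at least 1 UMI, two-sided, Benjamini-Hochberg adjusted p under 0.05. No stronger filter was used, because a filter by group keeps a silent gene only through the group where it is high. The default filter of edgeR, by group, passes 3 members, and a minimum of 10 UMIs over all 32 libraries passes 26. The minimum of 1 UMI does not avoid this limit. The 9 members without an untreated UMI entered through their treated counts, among them the called genes Dpep3 and Mov10l1. The fit was also tried on simulated libraries without a run effect, with changes set only in genes above a minimum of UMIs. No outcome of that trial is given here, so it does not vouch for the calls. An older form of the edgeR fit is among the alternatives. Ratios have exact binomial 95% intervals, and a group at 0 was set to 3 UMIs. DESeq2 1.42.0 and limma 3.58.1 served as alternatives, with 20 settings in all. Members and lists were chosen with earlier results of these data known. All 35 members are accounted for. CPM ranges are given for the 12 with the most UMIs, and from each list up to 4 called genes are named, or the most abundant if none was called. Chpt1 and Oaz3 were named for their overlap.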

Additional observations from a re-analysis of the deposited data

How the results depend on the processing

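The direction of the 18 called genes was kept in each setting that tested them. Of the 18, 12 were called in all settings other than edgeR's default filter by group. That filter tested 3 members and called 2, Gtsf1 and Sohlh2. Both pass it only through the treated libraries, where they are high, so these 2 calls are no separate support. Beside that filter the number of members called ran from 12 after thinning to 19, and 0 were called lower in any setting. The calls of Fkbp6, Tuba3a and Trap1a were lost most often. The replicate block called 16 members, 15 of them among the 18, and 315 genes of all as lower against 150. Same-numbered libraries of the groups had correlations of -0.291 to 0.833 in their deviations, over 0.1 in 12 of 16 pairs. Of 16 libraries each, 4 untreated and 3 treated correlated best with their own number. These values do not settle whether the numbers pair the samples. The main fit left the numbers out because no label says what they mark. Over all genes the calls were 350 higher with the default filter, 392 higher and 93 lower after thinning, 173 and 11 with sums of runs, and 422 higher with sums and a run term, against 721 and 150. Calls as lower numbered 1 with spike-in scaling, 331 with a run term, 230 without numbers 1 to 4, 97 without numbers 13 to 16 and 77 at an adjusted p under 0.01. Only genes without a call changed sign. With DESeq2 these were Sycp1 (-0.054), Stk31 (-0.054), Tdrd1 (-0.24), Hormad1 (-0.054) and Dppa5a (-0.054). With limma-voom they were Sycp1 (-0.20), Stk31 (-0.10), Tdrd1 (-0.23), Hormad1 (-0.15), Dppa5a (-0.15) and Rpl10l (-0.16). Spike-in scaling turned Xlr3a (0.040) and Xlr3b (0.18), thinning Xlr4a (-0.26), and leaving out numbers 13 to 16 Xlr3b (0.041). Rpl10l turned without numbers 1 to 4 (-1.07) and without the 5 libraries (-0.38). The cause of these changes was not tested, beyond the fewer genes that the filter and thinning leave. Of the 9 members with fewer than 10 UMIs in all, 1 (Dppa2) was called in any setting, edgeR's older form, so depth limits what can be said of them.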
